A study of Mus musculus with 27 samples.

Results

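The genes described here make, break down and sense prostaglandins. They are the cyclooxygenases Ptgs1 and Ptgs2, the terminal synthases Ptges, Hpgds and Tbxas1, the degrading enzyme Hpgd, the receptors Ptger2, Ptger4 and Ptgir, and Alox5ap of the neighbouring leukotriene branch. The 10 genes were chosen by name from the 23995 rows of the deposited expression table, and each had 1 row. Their levels and responses in these same libraries were known when the list was drawn up. Their values are therefore given as a description, with standard errors and without p-values.

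The libraries are bulk RNA-seq of primary microglia, the resident macrophages of the brain, from the cortices of neonatal C57BL/6J mice. The cells were grown in mixed glial culture, shaken off, re-plated and left without an agent or given one of 3 stimuli for 16 h. LPS (100 ng/ml) was given together with IFNγ (20 ng/ml) and acts on TLR4, PolyI:C is a double-stranded RNA mimic read by TLR3, and CpG (1 nmol/ml) is an oligonucleotide read by TLR9. The mice were wild type or carried the label CB2-/-, a loss of the cannabinoid receptor 2 gene Cnr2, and the series asks what this receptor does in activation through these 3 receptors. There were 27 libraries in 9 groups of 3. The wild-type libraries numbered 3012 to 3014 (unstimulated) and 3015 to 3023 (LPS/IFNγ, CpG and PolyI:C) form 1 run of numbers. The CB2-/- libraries are numbered 2048 to 2059, and 3 more unstimulated wild-type libraries 2186 to 2188. These 2 unstimulated wild-type groups were kept apart. Genotype and number series are the same split in every stimulated group, so in stimulated cells they cannot be told apart. No label ties a library to a litter, an animal or a culture, so all errors measure only the spread between these libraries, which may be technical.

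Prostaglandins are lipid messengers made from arachidonic acid, which phospholipases release from membranes. A cyclooxygenase turns it into prostaglandin H, and terminal synthases make from that the prostaglandins E and D, prostacyclin or thromboxane. Prostaglandin E leaves the cell through transporters, acts on receptors of the EP family, several of which raise cAMP, and is inactivated by 15-hydroxyprostaglandin dehydrogenase, the product of Hpgd. In microglia the constitutive Ptgs1 and the inducible Ptgs2 are both known, and inducible prostaglandin E synthesis is a familiar feature of activation by bacterial products.

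The values are the authors' normalised counts, comparable between libraries for 1 gene. Levels of single genes were compared with each other only after division by exon length, and the sums over marker lists are undivided. Log2 fold changes come from log2(normalised count + 1), in 1 limma fit of all 9 groups over 14668 genes, those reaching 10 in 3 or more libraries. All 10 members passed that filter. Each SE of that fit, and so each call, uses 1 spread per gene estimated over all 9 groups, not only the groups compared. A gene is called when its Benjamini-Hochberg adjusted p, over all genes tested, was under 0.05.

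The summed normalised counts were 6341299 to 14151982 per library. Cnr2 itself was at 317 to 454 in the unstimulated libraries labelled CB2-/- and at 172 to 233 in the 6 unstimulated wild-type libraries. It was at 217 to 412 in the stimulated CB2-/- libraries and at 0 to 22 in the stimulated wild-type ones. The gene-level value thus goes against the label, and since the deleted part is not given in the labels it checks nothing about the allele, so that CB2-/- stands below for the label. The 12 microglial markers used (Tmem119, P2ry12, Cx3cr1 and others) all had a row. Their summed level was 112825 to 131127 in libraries 3012 to 3014, 56637 to 86651 in stimulated wild type and 62826 to 85686 in 2186 to 2188. It was 59955 to 66260 in unstimulated and 41282 to 51402 in stimulated CB2-/- cells. Of the 12 markers 8, 10 and 9 were called lower and 2, 2 and 2 higher in wild type with LPS/IFNγ, PolyI:C and CpG. In CB2-/- cells 9, 4 and 8 were called lower and 2, 0 and 0 higher. In the differences between the genotypes 4, 8 and 3 were called higher and 1, 1 and 2 lower. The shares of all genes called in these comparisons are given below with the members. The 9 astrocyte markers summed to 50.7 to 1415 in the libraries 3012 to 3023, to 1600 to 2674 in 2186 to 2188 and to 179 to 381 in the CB2-/- libraries. The 6 fibroblast markers summed to 12.1 to 2891, 691 to 2475 and 27.4 to 95.3 in the same sets. The 6 monocyte and neutrophil markers, 4 of them tested, summed to 14.8 to 55.3 in the unstimulated groups. With LPS/IFNγ, PolyI:C and CpG they summed to 77.5 to 104, 259 to 386 and 291 to 399 in wild type and to 53 to 67.4, 38.4 to 51.1 and 56.9 to 84.1 in CB2-/- cells. With PolyI:C 3 of the 4 were called higher in wild type, and the same number lower in the difference between the genotypes. Most of the wild-type sum with PolyI:C and CpG was S100a8, at 191 to 377, while S100a9 and Ngp were at 0 in all wild-type libraries. The genes Gm19220, Gm26822 and Grip2 together held 0.0741 to 50.8% of the summed values in the libraries numbered 2048 to 2188 and at most 0.00453% in 3012 to 3023. The part of these differences in the results below was not tested. In bulk RNA, fewer cells of a type and less RNA per cell cannot be told apart.

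Stimulation turned the pattern of these genes over. In unstimulated wild-type cells Hpgd had the highest level per kb of exon of the 10 genes, and after every stimulus Ptgs2 and Ptges held the first 2 places in both genotypes. In wild-type cells Ptgs2, Ptges and Ptgir were higher and Ptgs1, Hpgd, Tbxas1, Ptger4 and Alox5ap lower with each of the 3 stimuli. The same 8 genes in CB2-/- cells had the same signs, not all of them called. Ptgs2, Ptges, Hpgd, Ptger4, Ptgir and Alox5ap had smaller log2 changes there with every stimulus, though Ptgs2 with CpG barely so (4.23 against 4.37). Ptgs1 with CpG and Tbxas1 with LPS/IFNγ and with CpG had larger ones. The plot of all 27 libraries gives each value.

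**Figure D1:**
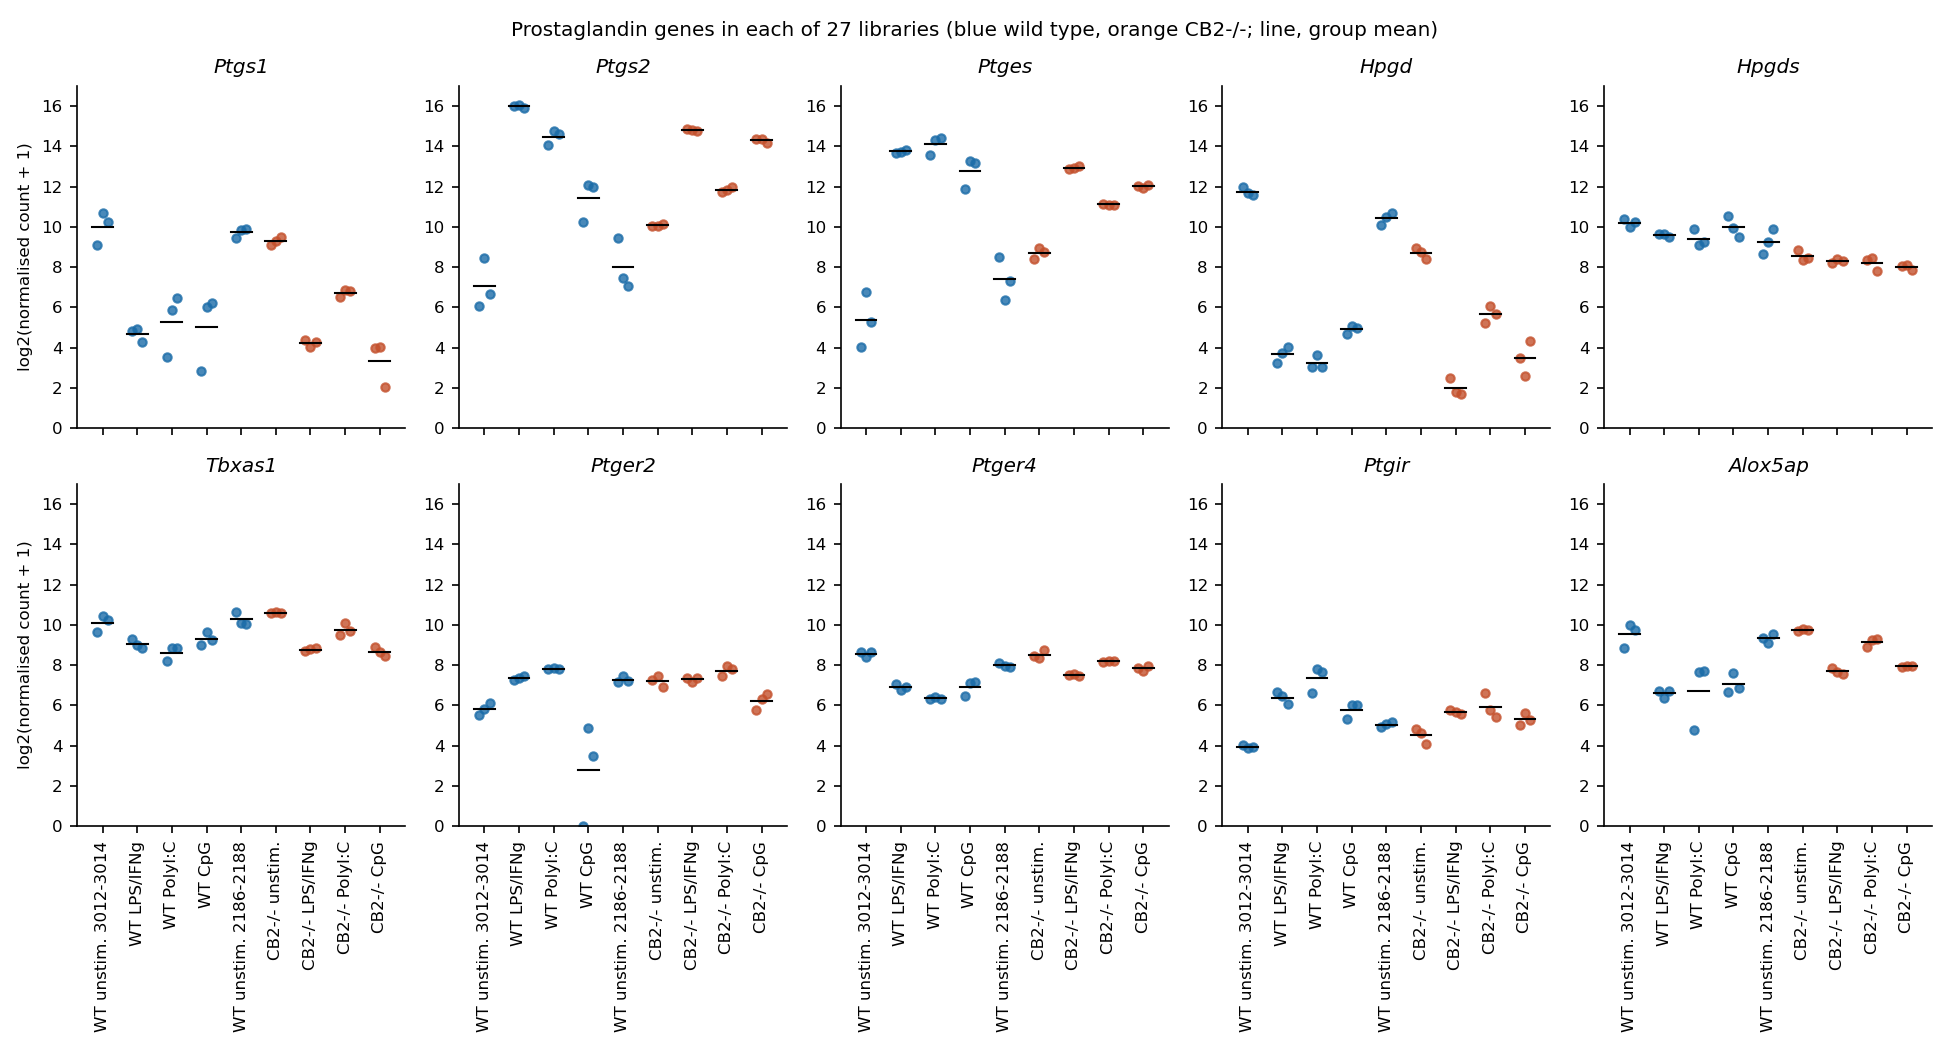
Each panel is 1 gene, the vertical axis is log2(normalised count + 1), points are libraries, lines are means of the 3 log2 values of a group, and wild type is blue and CB2-/- orange. Ptgs2 and Ptges lie high in all 6 stimulated groups and Ptgs1 and Hpgd low, while Hpgds stays between 225 and 1468 normalised counts in all 27 libraries.

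Of the 10 members, 3 were called higher and 5 lower with LPS/IFNγ in wild type, where 21.7% of all genes tested were called higher and 18% lower. With PolyI:C 4 were called higher and 6 lower (background 21.2% and 19.9%), while CpG gave 3 higher and 6 lower (16.5% and 19.6%). In CB2-/- cells LPS/IFNγ gave 3 higher and 5 lower (12.8% and 10.9%), PolyI:C 3 and 3 (5.11% and 3.44%) and CpG 2 and 5 (6.82% and 7.44%). Nothing is read from these shares, since the members were chosen with these contrasts known. The count for PolyI:C in CB2-/- cells was the least firm: on leaving out any 1 of its 6 libraries it came to 2 to 4 members, and without replicate 1 of the PolyI:C group to 2. The median log2 change over all genes lay between -0.09 and 0.05 in these 6 comparisons.

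Ptgs2 (ENSMUSG00000032487.8, chromosome 1, 150100031 to 150108227, plus strand, GRCm38) encodes the inducible cyclooxygenase. The unstimulated wild-type libraries 3012 to 3014 had normalised counts of 66.2, 349 and 102. They were 65465, 67534 and 62151 with LPS/IFNγ, 17044, 27460 and 25154 with PolyI:C, then 1214, 4348 and 3995 with CpG. The 3 stimulated ranges did not overlap with each other or with the unstimulated one. These were log2 changes of 8.92 ± 0.50 (SE, n = 3 against 3), 7.41 ± 0.50 and 4.37 ± 0.50.

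Ptgs2 started higher in CB2-/- cells, at 1059, 1055 and 1111. It reached 29454, 28842 and 27880 with LPS/IFNγ, 3373, 3626 and 4093 with PolyI:C, then 20946, 20970 and 18706 with CpG. The order of the stimuli therefore differed: PolyI:C stood above CpG in wild type, by a ratio of means of 7.29, and CpG above PolyI:C in CB2-/- cells, by 5.47, with no overlap of the ranges in either. In log2 terms the stimuli gave 4.74 ± 0.50, 1.78 ± 0.50 and 4.23 ± 0.50. The PolyI:C change lost its call on leaving out any 1 of its 6 libraries, at values of 1.70 to 1.84. These libraries themselves were separate, at 1055 to 1111 without a stimulus and 3373 to 4093 with PolyI:C, and the SE holds the spread of all 9 groups. Across all 9 groups the order from high to low was LPS/IFNγ in wild type, LPS/IFNγ in CB2-/-, PolyI:C in wild type and CpG in CB2-/-, then PolyI:C in CB2-/- and CpG in wild type, and last the unstimulated groups with CB2-/- on top. PolyI:C in wild type and CpG in CB2-/- overlapped, as did PolyI:C in CB2-/- and CpG in wild type, and the 2 unstimulated wild-type groups.

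Ptgs1 (ENSMUSG00000047250.13, chromosome 2, 36230426 to 36252272, plus strand) encodes the constitutive cyclooxygenase and went the other way. Unstimulated wild-type cells had 543, 1622 and 1198. With LPS/IFNγ 27.7, 29.8 and 18.7 were left, with PolyI:C 10.4, 57.8 and 87.6, and after CpG 6.04, 63.8 and 72.3. All 9 stimulated libraries lay below all unstimulated ones, and the 3 stimuli overlapped each other. The log2 changes were -5.30 ± 0.71, -4.71 ± 0.71 and -4.98 ± 0.71.

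CB2-/- cells had 556, 636 and 715 Ptgs1 counts without a stimulus. They had 20.1, 15.2 and 18.2 with LPS/IFNγ, 89, 116 and 111 with PolyI:C, then 14.9, 15.3 and 3.05 with CpG. The PolyI:C libraries stood above the other stimulated ones of that genotype. That made log2 changes of -5.08 ± 0.71, -2.59 ± 0.71 and -5.96 ± 0.71. The PolyI:C change lost its call without any 1 of its 6 libraries (-2.68 to -2.47), although the PolyI:C and unstimulated libraries did not overlap.

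Divided by exon length, the ratio of Ptgs2 to Ptgs1 in the same library was 0.0722 to 0.182 in wild-type libraries 3012 to 3014 and 0.118 to 0.844 in 2186 to 2188, so that Ptgs1 was the more abundant cyclooxygenase in all 6. In unstimulated CB2-/- cells it was 1.32 to 1.62. With LPS/IFNγ it was 1922 to 2819 in wild type and 1243 to 1609 in CB2-/- cells. With PolyI:C the ratio was 244 to 1390 and 26.5 to 32.1, and with CpG 46.9 to 170 and 1162 to 5201. The genotypes did not overlap in any of the 3 stimuli, and with CpG the CB2-/- cells had the larger ratio. The CpG ratios divide by low Ptgs1 counts, 3.05 to 15.3 in CB2-/- cells and 6.04 to 72.3 in wild type. The ratio of 5201 is that of the library at 3.05, and the 1390 with PolyI:C that of a wild-type library at 10.4.

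Ptges (ENSMUSG00000050737.13, chromosome 2, 30889471 to 30929863, minus strand) encodes the inducible microsomal prostaglandin E synthase, which works downstream of Ptgs2. Its counts were 15.3, 108 and 37.3 in unstimulated wild type. They were 13168, 13718 and 14346 with LPS/IFNγ, 12350, 20112 and 21741 with PolyI:C, then 3728, 9995 and 9264 with CpG. Every stimulated library exceeded every unstimulated one, and LPS/IFNγ and PolyI:C overlapped. On the log2 scale the changes were 8.40 ± 0.48, 8.75 ± 0.48 and 7.43 ± 0.48.

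The CB2-/- libraries of Ptges went from 333, 498 and 435 to 7564, 7800 and 8263 with LPS/IFNγ, to 2273, 2172 and 2198 with PolyI:C and to 4154, 3943 and 4379 with CpG. The 4 ranges were separate. The log2 changes were 4.24 ± 0.48, 2.41 ± 0.48 and 3.32 ± 0.48. PolyI:C gave the highest mean in wild type and the lowest of the 3 stimuli in CB2-/- cells. With CpG, the 2 genotypes overlapped in level, since the first wild-type library had 3728.

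Hpgd (ENSMUSG00000031613.9, chromosome 8, 56294585 to 56321043, plus strand), whose product inactivates prostaglandin E, was the mirror image. Unstimulated wild-type libraries 3012 to 3014 had 4013, 3300 and 3082. With LPS/IFNγ 8.33, 12.4 and 15.3 were left, with PolyI:C 7.08, 11.6 and 7.25, and after CpG 24.7, 32.9 and 30.2. CpG stood above the other stimuli without overlap. In log2 terms the stimuli gave -8.09 ± 0.36, -8.51 ± 0.36 and -6.84 ± 0.36, the largest decreases among the 10 genes in wild type.

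Before any stimulus CB2-/- cells had less Hpgd than both wild-type groups, at 488, 434 and 336 against 1094, 1417 and 1654 in libraries 2186 to 2188. With LPS/IFNγ they had 4.52, 2.44 and 2.21, with PolyI:C 36.8, 65.7 and 50, and after CpG 10.2, 4.92 and 19.2. Here PolyI:C left the highest level, where in wild type it left the lowest mean. The fitted log2 changes came to -6.72 ± 0.36, -3.04 ± 0.36 and -5.23 ± 0.36. Levels under 10 are close to the limit of the measurement, and the added 1 understates changes there.

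Per kb of exon, the Ptges to Hpgd ratio of a library summarises the pair. It was 0.00163 to 0.014 in unstimulated wild-type libraries 3012 to 3014, 0.0247 to 0.139 in 2186 to 2188 and 0.292 to 0.554 in CB2-/- cells, so Hpgd exceeded Ptges in all 9. It was 401 to 677 and 716 to 1601 with LPS/IFNγ in wild type and CB2-/- cells, and 64.6 to 131 and 97.6 to 343 with CpG. With PolyI:C the 2 genotypes were far apart, at 742 to 1284 against 14.2 to 26.4. With LPS/IFNγ the CB2-/- ratio was the higher one without overlap, although Ptges itself was lower there. The Hpgd counts in these LPS/IFNγ ratios were only 2.21 to 4.52 in CB2-/- cells and 8.33 to 15.3 in wild type. They lie near the limit of the measurement, so the size of these ratios and their separation are uncertain.

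**Figure D2:**
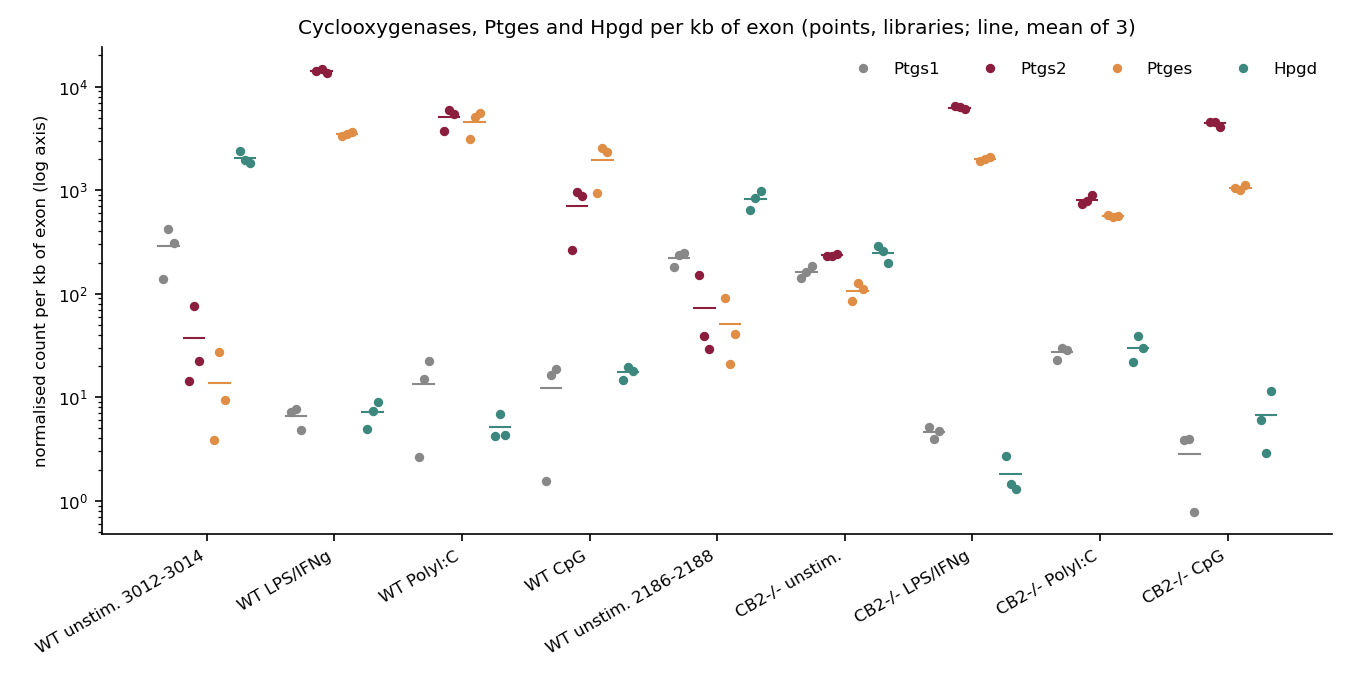
The vertical axis (log) is the normalised count per kb of exon of Ptgs1, Ptgs2, Ptges and Hpgd, points are the 3 libraries of each group and lines their means. Hpgd (mean 2059) and Ptgs1 (289) stand above Ptgs2 (37.6) and Ptges (13.6) in unstimulated wild-type libraries 3012 to 3014, and the order is turned over in all 6 stimulated groups.

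The RefSeq sequences 5′ of these 4 genes are shown because they were the members with the largest changes, 2 upward and 2 downward. Each is the 250 bases before the transcription start of the RefSeq entry, 5′ to 3′ on the gene's strand (build GRCm38.p6), with matches to the C/EBP motif in capitals. They lie at chr1:150099781-150100030 (plus) for Ptgs2, chr2:30903298-30903547 (minus) for Ptges, chr2:36230176-36230425 (plus) for Ptgs1 and chr8:56294302-56294551 (plus) for Hpgd. The Ptges window lies inside the gene span given above, which reaches 30929863 on this minus-strand gene, and so precedes an internal start of that annotation's gene model.
Ptgs2: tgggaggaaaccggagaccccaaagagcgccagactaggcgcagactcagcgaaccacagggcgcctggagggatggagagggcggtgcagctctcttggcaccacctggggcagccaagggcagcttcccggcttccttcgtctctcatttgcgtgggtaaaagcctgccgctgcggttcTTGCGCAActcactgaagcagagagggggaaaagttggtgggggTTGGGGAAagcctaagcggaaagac
Ptges: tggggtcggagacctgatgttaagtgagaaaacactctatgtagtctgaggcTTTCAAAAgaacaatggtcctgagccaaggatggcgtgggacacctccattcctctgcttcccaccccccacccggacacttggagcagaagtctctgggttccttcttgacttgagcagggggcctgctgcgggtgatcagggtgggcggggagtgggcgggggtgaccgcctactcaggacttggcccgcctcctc
Ptgs1: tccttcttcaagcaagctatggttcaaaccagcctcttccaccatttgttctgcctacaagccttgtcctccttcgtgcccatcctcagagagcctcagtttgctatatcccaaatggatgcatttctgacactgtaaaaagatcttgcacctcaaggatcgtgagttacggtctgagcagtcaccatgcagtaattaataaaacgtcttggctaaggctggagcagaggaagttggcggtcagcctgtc
Hpgd: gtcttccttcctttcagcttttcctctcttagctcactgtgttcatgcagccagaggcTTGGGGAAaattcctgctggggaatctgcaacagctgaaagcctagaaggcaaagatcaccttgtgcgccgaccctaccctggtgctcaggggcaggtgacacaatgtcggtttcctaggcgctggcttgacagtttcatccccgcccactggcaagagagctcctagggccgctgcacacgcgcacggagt

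Of the members, 9 had a RefSeq promoter entry in the reference table. The C/EBP motif was searched as TTNNGNAA on both strands. It occurred at 2 places in Ptgs2, as TTGCGCAA from 69 to 62 bases and TTGGGGAA from 25 to 18 bases before the start, at 1 place each in Ptges and Hpgd, at 2 each in Hpgds and Ptger2, and at none in Ptgs1, Tbxas1, Ptger4 or Ptgir. Of all 32851 promoters of the same length 36.8% held it. Hpgd holds the same 8 letters TTGGGGAA as Ptgs2, from 192 to 185 bases before its start, although the genes moved in opposite directions. The GC box GGGCGG (32.7% of all promoters) was in Ptgs2, Ptges, Hpgd, Ptger4 and Ptgir, with 4 matches in Ptger4. The PU.1 core GAGGAA (23.3%) was in Ptgs1, Ptgs2, Ptges, Hpgd, Hpgds, Tbxas1 and Ptgir. The kappaB consensus (7.25%), the cAMP response element TGACGTCA (1.55%), the shorter TGACG (17.8%, contained in the former) and the E-box CACGTG (6.02%) were in none of the 9. The AP-1 motif TGANTCA (6.75%) and the TATA box letters TATAAA (12.4%) were in Tbxas1 alone. The TATAAA matches lay from 13 to 8 and from 11 to 6 bases before the start. The Tbxas1 window (chromosome 6, 38918736 to 38918985) lies inside the gene span given below, and so precedes an internal start of that gene model. The Hpgds window (chromosome 6, 65144731 to 65144980) lies partly inside its gene span. A match is a description of letters, not a bound site. These windows leave out all sequence farther upstream and all sequence after the RefSeq transcription start. A motif absent from a window, such as the cAMP response element or the E-box in Ptgs2, may still lie outside that window.

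Hpgds and Tbxas1, the synthases of the other 2 branches, moved little beside Ptges. Hpgds (ENSMUSG00000029919.5, chromosome 6, 65117293 to 65144908, minus strand) encodes the haematopoietic prostaglandin D synthase. It had 1350, 1005 and 1212 counts in unstimulated wild type. With LPS/IFNγ it had 795, 786 and 711, with PolyI:C 956, 543 and 612, and after CpG 1468, 978 and 717. Only the PolyI:C change of -0.79 ± 0.26 was called in wild type, and the others were -0.63 ± 0.26 and -0.23 ± 0.26. That call was lost without replicate 1 of the unstimulated group or without replicate 2 or 3 of the PolyI:C group (-0.71 to -0.63). Libraries 2186 to 2188 had 404, 600 and 962, and with all 6 unstimulated wild-type libraries as 1 group the change was -0.32 and not called. CB2-/- cells had 453, 330 and 349 without a stimulus and 225 to 348 with any of the 3, and no change was called, at -0.25, -0.35 and -0.54 (each ± 0.26). All 12 CB2-/- libraries thus lay between 225 and 453, and the wild-type libraries between 404 and 1468.

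Tbxas1 (ENSMUSG00000029925.13, chromosome 6, 38875404 to 39084585, plus strand) encodes thromboxane synthase. Wild-type counts were 806, 1387 and 1213 unstimulated, 626, 510 and 460 with LPS/IFNγ, 296, 455 and 456 with PolyI:C, then 514, 791 and 611 with CpG. No stimulated library exceeded the lowest unstimulated one. The log2 changes were -1.07 ± 0.21, -1.49 ± 0.21 and -0.81 ± 0.21. Tbxas1 in CB2-/- cells went from 1552, 1593 and 1556 to 420, 440 and 454, to 727, 1082 and 838, and to 481, 405 and 347, in the same order of stimuli. These log2 changes were -1.84 ± 0.21, -0.85 ± 0.21 and -1.94 ± 0.21. In wild type PolyI:C gave the largest decrease, and in CB2-/- cells the smallest. The CpG call in wild type was lost with only the compared groups in the fit, as were the wild-type CpG calls of Ptger2 and Ptgir.

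Among the receptors, Ptger4 (ENSMUSG00000039942.15, chromosome 15, 5206661 to 5244187, minus strand), the EP4 receptor for prostaglandin E, was lower with every stimulus. Its counts in wild type were 398, 343 and 400 unstimulated, 131, 109 and 118 with LPS/IFNγ, 78.3, 85.2 and 80.2 with PolyI:C, then 86.3, 139 and 141 with CpG. Its log2 changes were -1.67, -2.21 and -1.66 (each ± 0.16), with no overlap between stimulated and unstimulated libraries. For CB2-/- cells the counts went from 346, 327 and 428 to 183, 191 and 177, to 281, 299 and 298, and to 230, 206 and 251. The log2 changes there were -0.98, -0.31 and -0.67 (each ± 0.16), and the PolyI:C change was not called. Every stimulated CB2-/- library lay above every wild-type library with a stimulus.

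Ptger2 (ENSMUSG00000037759.6, chromosome 14, 44988195 to 45003820, plus strand), the EP2 receptor, divided the stimuli. Wild-type cells had 44.4, 55.3 and 68.8 unstimulated, 155, 165 and 174 with LPS/IFNγ, 223, 235 and 220 with PolyI:C, then 0, 28.5 and 10.3 with CpG. The 4 ranges were separate, with CpG below the unstimulated cells. On the log2 scale the changes were 1.55 ± 0.64, 2.01 ± 0.64 and -3.02 ± 0.64, and the first was not called. The CpG value rests in part on replicate 1, which had none, and was -1.78 without the 3 libraries described below. Ptger2 in CB2-/- cells was at 151, 175 and 119 unstimulated, 164, 141 and 163 with LPS/IFNγ, 176, 244 and 221 with PolyI:C, then 53.9, 78.1 and 92.7 with CpG. No change was called there, at 0.09, 0.53 and -0.99 (each ± 0.64), although the CpG libraries lay below the unstimulated ones. CpG thus gave the lowest Ptger2 of the 3 stimuli in both genotypes.

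The Ptger2 responses in wild type depend on the baseline. The second unstimulated group, 2186 to 2188, had 144, 173 and 148, above all of 3012 to 3014 and within reach of the LPS/IFNγ libraries. With all 6 unstimulated libraries as 1 group the PolyI:C change was 1.28 and no longer called.

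Ptgir (ENSMUSG00000043017.9, chromosome 7, 16906490 to 16910905, plus strand), the prostacyclin receptor, was low throughout and higher with each stimulus. In wild type it went from 15.2, 13.6 and 14.4 to 100, 86.1 and 66.4 with LPS/IFNγ, to 96.4, 220 and 204 with PolyI:C and to 38.7, 63.5 and 64.6 with CpG. These were log2 changes of 2.45, 3.41 and 1.84 (each ± 0.35), with no overlap between stimulated and unstimulated libraries. Ptgir in CB2-/- cells went from 27.8, 23.7 and 16.2 to 54.2, 50.8 and 47.4, to 96.8, 53.5 and 42.2, and to 32.1, 49.1 and 37.1. The log2 changes were 1.17, 1.41 and 0.79 (each ± 0.35), of which the last was not called. The other 2 calls were lost without replicate 3 of the unstimulated group (0.96 and 1.20) or replicate 1 of the stimulated group (1.12 and 1.07).

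Alox5ap (ENSMUSG00000060063.9, chromosome 5, 149264767 to 149288153, plus strand) encodes the protein that hands arachidonic acid to 5-lipoxygenase for leukotriene synthesis. It was at 460, 1037 and 863 in unstimulated wild type, at 106, 80.7 and 103 with LPS/IFNγ, at 26.6, 200 and 206 with PolyI:C and at 102, 193 and 115 with CpG. The fitted log2 changes came to -2.94, -2.83 and -2.49 (each ± 0.46). CB2-/- cells had 843, 879 and 861 unstimulated, 235, 202 and 187 with LPS/IFNγ, 481, 601 and 636 with PolyI:C, then 240, 246 and 252 with CpG. Their log2 changes were -2.05, -0.60 and -1.80 (each ± 0.46), and the PolyI:C change was not called. In each stimulus all 3 CB2-/- libraries lay above the 3 wild-type ones.

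The design asks whether the responses differ with genotype, which is the CB2-/- change minus the wild-type change. For LPS/IFNγ limma called 0 members higher and 2 lower (background 3.98% and 8.36%; 2 and 4 at an unadjusted p under 0.05), for PolyI:C 3 and 3 (10.8% and 13.9%) and for CpG 2 and 2 (6.11% and 5.66%). The rule used these values, so the counts are a description. The LPS/IFNγ count was 4 without replicate 2 of the wild-type libraries 3012 to 3014. It was 6 without the 3 libraries low in astrocyte and fibroblast markers. The CpG count was 2 without replicate 1 of that unstimulated group, and also 2 with all 6 unstimulated wild-type libraries as baseline. The split of calls over all genes depends on scaling for LPS/IFNγ, with 32.3% of the calls higher in these values and 44.8% after quantile normalisation. The same holds for the PolyI:C response of CB2-/- cells, at 59.8% and 46.3%.

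**Figure D3:**
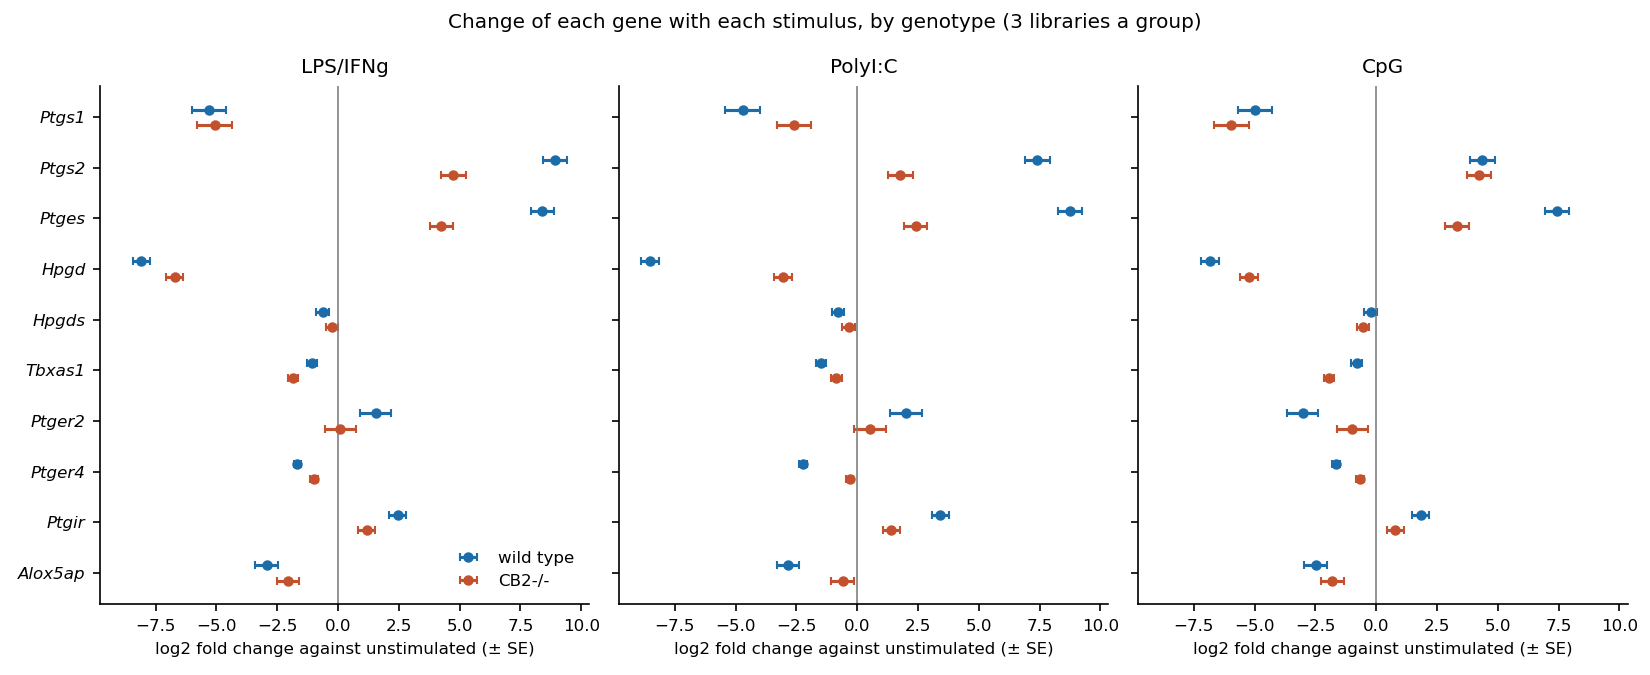
The horizontal axis is the log2 fold change of each gene against the unstimulated group of the same genotype, with bars of ± 1 SE, in wild type (blue, against libraries 3012 to 3014) and CB2-/- (orange). The PolyI:C panel has the widest gaps, with Ptgs2 at 7.41 and 1.78, Ptges at 8.75 and 2.41 and Hpgd at -8.51 and -3.04, and in the CpG panel the Ptgs2 points lie at 4.37 and 4.23.

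PolyI:C gave the largest differences. The CB2-/- response minus the wild-type response was -6.34 ± 0.68 for Ptges, -5.63 ± 0.71 for Ptgs2 and 5.47 ± 0.51 for Hpgd. It was also called for Alox5ap (2.23 ± 0.65), Ptger4 (1.90 ± 0.23) and Ptgir (-2.00 ± 0.50), and in every case the CB2-/- change was the smaller one in size. With all 6 unstimulated wild-type libraries as 1 group the Ptgir difference was -1.45 and not called, which left 5 members, and the Alox5ap call was lost with only the compared groups in the fit. For Ptgs1 (2.12 ± 1.01), Ptger2 (-1.48 ± 0.91), Tbxas1 (0.64 ± 0.30) and Hpgds (0.44 ± 0.37) it was not called, and these too lay on the side of a smaller CB2-/- change. In level, the ratio of CB2-/- to wild type with PolyI:C was 0.123 for Ptges, 0.159 for Ptgs2 and 5.89 for Hpgd, with no overlap of the libraries.

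With LPS/IFNγ the difference was -4.18 ± 0.71 for Ptgs2 and -4.16 ± 0.68 for Ptges, the 2 genes called. On the log2 scale the larger part of each lies in the unstimulated cells. Mean Ptgs2 there was 1075 in CB2-/- cells and 172 in wild-type libraries 3012 to 3014, and mean Ptges 422 and 53.4. The other unstimulated wild-type group was itself above 3012 to 3014, by 2.04 ± 0.48 for Ptges and 0.93 ± 0.50 for Ptgs2, the latter not called. In level, the CB2-/- libraries with LPS/IFNγ held 0.442 times the wild-type Ptgs2 and 0.573 times the wild-type Ptges, without overlap. Ptger4 (0.68 ± 0.23), Hpgd (1.37 ± 0.51), Ptgir (-1.28 ± 0.50) and Tbxas1 (-0.77 ± 0.30) were not called. For Hpgd the level was lower in CB2-/- cells, at a ratio of 0.255, while its fold decrease was smaller.

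With CpG the Ptges response differed by -4.11 ± 0.68, and the Ptgs2 response by -0.14 ± 0.71. An interval of 2 SE around the Ptgs2 value still reaches differences of more than 1 on the log2 scale in either direction. In level CB2-/- cells had 6.34 times as much Ptgs2 with CpG as wild type, without overlap, since they also started higher. For Ptges the CB2-/- level with CpG was 0.543 times the wild-type one, with overlap. The unstimulated Ptges means were 422 in CB2-/- cells and 53.4 in libraries 3012 to 3014. Hpgd (1.60 ± 0.51), Tbxas1 (-1.13 ± 0.30) and Ptger4 (0.99 ± 0.23) were called as well. The Hpgd level with CpG was lower in CB2-/- cells, at a ratio of 0.391, while its fold decrease was smaller. The Hpgd call was lost on leaving out any of 10 of the 12 libraries (1.17 to 1.72 in those) and the Tbxas1 call without replicate 1 of the wild-type libraries 3012 to 3014 (-0.90). With all 6 unstimulated wild-type libraries as 1 group the Ptger4 difference was 0.71 and the Hpgd difference 0.94, and neither was called. Tbxas1 had the larger decrease in CB2-/- cells, unlike with PolyI:C.

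In the authors' batch-corrected table, which is on a log2 scale, the PolyI:C differences were -4.31 for Ptges, -3.91 for Ptgs2 and 4.05 for Hpgd. The LPS/IFNγ differences were -2.24 for Ptges and -2.48 for Ptgs2 there, and the CpG differences -2.34 for Ptges and 0.53 for Ptgs2. All kept their call or lack of one. Since the stimulated libraries of a number series hold 1 genotype, no genotype difference within a series can be given for them.

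Without a stimulus, CB2-/- cells were compared with the wild-type libraries 2186 to 2188. These are the nearest in number, but the 2 sets are separate runs of numbers with 1 genotype each. A difference between the runs thus cannot be told apart from genotype here either. Ptgs2 was higher by 2.07 ± 0.50 and Hpgd lower by 1.72 ± 0.36 on the log2 scale, 1 member called in each direction (background 6.25% and 3.65%). Ptges, at 333 to 498 against 81.9 to 356, differed by 1.31 ± 0.48 and was not called. The first wild-type library had 698 Ptgs2 and 356 Ptges counts, against 177 and 81.9 in the second and 134 and 159 in the third. The Ptgs2 call was lost without the second or the third of these libraries (1.81 and 1.61), while without the first Ptges was called as well, at 1.86, and the count of members was 5. The astrocyte markers differed in the same comparison, summing to 211 to 310 in CB2-/- cells and 1600 to 2674 in these wild-type libraries, with 1 of 8 tested called lower. Their part in the result was not tested.

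The 2 unstimulated wild-type groups also differed from each other. Libraries 2186 to 2188 against 3012 to 3014 had 2 members called higher, Ptges (2.04 ± 0.48) and Ptgir (1.11 ± 0.35), and 3 lower, Hpgd (-1.33 ± 0.36), Hpgds (-0.94 ± 0.26) and Ptger4 (-0.56 ± 0.16), against a background of 6.33% and 5.66%. Hpgd was at 1094 to 1654 against 3082 to 4013, without overlap. Ptgs2 was 0.93 ± 0.50 and not called. Leaving out 1 of the 6 libraries gave 0 to 5 called members, with 0 by limma without replicate 1 of 3012 to 3014 (5 at an unadjusted p under 0.05), and 2, 2 and 3 without replicate 1, 2 or 3 of 2186 to 2188 and 2 without replicate 3 of 3012 to 3014. For Hpgd, Ptges and Hpgds the sign is the one that CB2-/- cells have against 2186 to 2188. For Ptgir and Ptger4 it is the opposite one, with CB2-/- cells at -0.52 ± 0.35 and 0.50 ± 0.16, neither called.

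Libraries of 1 wild-type group were not alike. The first replicates of the PolyI:C (3021), CpG (3018) and unstimulated (3012) groups had the lowest Ptgs1, Ptgs2, Ptges, Tbxas1 and Alox5ap of their group. Hpgds went the other way and was the highest of the group in each (956, 1468 and 1350). These 3 libraries had the fewest genes above 0 of their group (15692, 13628 and 16309). They also had the lowest summed astrocyte markers (50.7, 100 and 205, against 350 to 1415 in the 6 remaining libraries there) and the lowest summed fibroblast markers (50.4, 12.1 and 13.4, against 381 to 2891). Gfap, the defining astrocyte marker, was at 0, 10 and 77 in the 3 libraries, and Col1a1, a defining fibroblast marker, at 9.34, 8.64 and 0. Without these 3 libraries the wild-type changes with LPS/IFNγ were 8.42 for Ptgs2, 7.74 for Ptges, -7.98 for Hpgd and -5.75 for Ptgs1. The PolyI:C differences between the genotypes were then -5.34 for Ptgs2, -5.93 for Ptges and 5.25 for Hpgd. The count of members called in wild type became 9, 10 and 9 for LPS/IFNγ, PolyI:C and CpG, and the differences 6, 8 and 4.

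**Figure D4:**
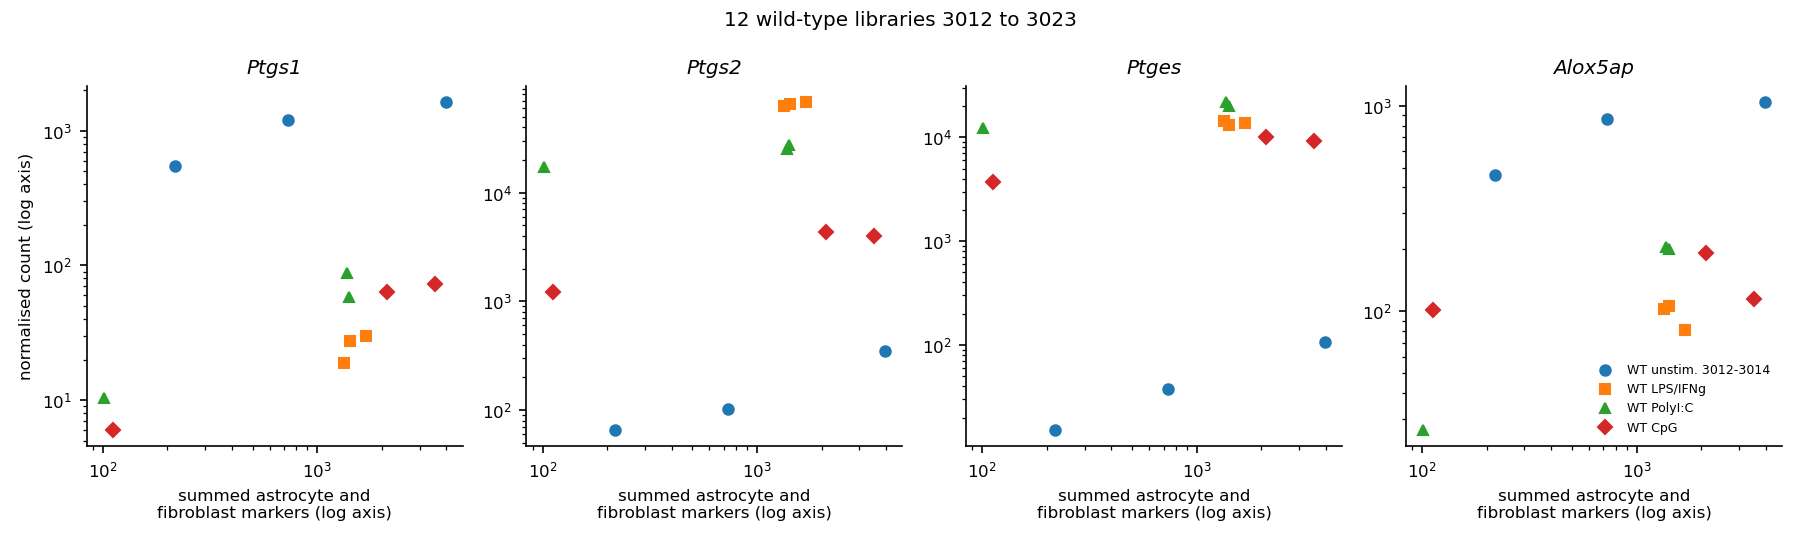
The horizontal axis (log) is the sum of the astrocyte and fibroblast markers and the vertical axis (log) the normalised count of Ptgs1, Ptgs2, Ptges or Alox5ap in the 12 wild-type libraries 3012 to 3023, with symbols for the 4 groups. In 3 of these groups, all but LPS/IFNγ, the library farthest left is the lowest of its group in each panel, while the groups stay apart in Ptgs2.

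The other genes of the pathway, 64 with a row and 51 tested, moved in part with the members. In wild type 13 were called higher and 17 lower with LPS/IFNγ, 12 and 20 with PolyI:C, then 10 and 22 with CpG, with medians of -0.21, -0.71 and -0.23. In CB2-/- cells the counts were 8 and 13, 5 and 4, and 8 and 13, with medians of -0.08, -0.03 and -0.09. The background shares are those given for the members. The lists were drawn up with results of these libraries known, so the genes named from them are given without p-values, and rose or fell means called by limma.

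Upstream of the cyclooxygenases, 14 genes of arachidonate release and recycling were tested, and 5, 7 and 4 rose and 1, 2 and 3 fell in wild type with LPS/IFNγ, PolyI:C and CpG. Pla2g4a, the cytosolic phospholipase A that releases arachidonic acid, was at 361, 447 and 369 in unstimulated wild type and at 2113, 2102 and 2117 with LPS/IFNγ. It rose by 2.43 ± 0.20 with LPS/IFNγ and by 2.01 ± 0.20 with PolyI:C. In CB2-/- cells it went from 982, 990 and 781 to 1520, 1576 and 1642 with LPS/IFNγ and to 1001, 981 and 975 with PolyI:C, so that the response differed by -1.64 ± 0.28 and -1.90 ± 0.28. Acsl1, a ligase that returns fatty acids to lipid, rose in all 6 comparisons, by 3.04 ± 0.16 with PolyI:C in wild type and 0.70 ± 0.16 in CB2-/- cells. Pla2g15, the lysosomal phospholipase, fell in all 6, from 1821, 2177 and 2009 to 268, 243 and 252 with LPS/IFNγ in wild type and from 1069, 1077 and 1102 to 416, 418 and 418 in CB2-/- cells. Pla2g5 was at 0 in the unstimulated wild-type libraries 3012 to 3014 and at 9.62 to 31.9 with LPS/IFNγ in wild type. In the unstimulated libraries 2186 to 2188 it was at 9.01, 4.02 and 0.719, and in unstimulated CB2-/- cells at 14 to 14.4.

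Of the 6 other terminal synthases tested, 2, 2 and 2 rose and 3, 3 and 2 fell in wild type with LPS/IFNγ, PolyI:C and CpG, and 0, 0 and 2 rose and 2, 1 and 1 fell in CB2-/- cells. Akr1b3, an aldo-keto reductase, went from 989, 1131 and 1132 to 401, 330 and 439 with LPS/IFNγ in wild type, and the carbonyl reductase Cbr1 from 180, 262 and 224 to 85, 92 and 70.1. Ptges3, the cytosolic prostaglandin E synthase, rose by 1.11, 1.17 and 1.30 in wild type (each ± 0.12) and by 0.48 ± 0.12 with CpG in CB2-/- cells, where the 2 other changes were 0.27 and 0.13 and not called. Its responses differed between the genotypes in all 3 stimuli, by -0.85, -1.04 and -0.82. Compared with Ptges its range was small, 377 to 1147 in all libraries of both genotypes. Ptgds and Ptgis, the other prostaglandin D synthase and the prostacyclin synthase, stayed at or below 9.89 and 21.7 in every library, and Ptgds did not pass the filter. Of 5 other breakdown genes tested, 2, 3 and 2 fell in wild type with LPS/IFNγ, PolyI:C and CpG. Ptgr2, a prostaglandin reductase, fell by 1.03 ± 0.18 with LPS/IFNγ in wild type and was at 0.13 ± 0.18 in CB2-/- cells.

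Slco3a1, a transporter of the organic anion family that carries prostaglandins, followed Ptgs2. It was at 8.59, 35.9 and 1.97 in unstimulated wild type, at 1988, 1941 and 2242 with LPS/IFNγ, at 746, 1300 and 1170 with PolyI:C and at 199, 236 and 248 with CpG. In CB2-/- cells it went from 19, 13.9 and 16.5 to 577, 723 and 698, to 198, 111 and 104, and to 263, 238 and 252, so that CpG stood above PolyI:C there as it did for Ptgs2. The responses differed by -2.40 ± 0.71 with LPS/IFNγ and by -3.75 ± 0.71 with PolyI:C, and by -0.63 ± 0.71 with CpG, which was not called. Abcc4, an exporter of prostaglandin E, rose with CpG in both genotypes, by 1.65 and 1.36 (each ± 0.27).

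On the leukotriene side 11 genes were tested, and in wild type 7, 7 and 9 fell and 2, 1 and 1 rose. Alox5, the lipoxygenase that Alox5ap serves, fell by 4.55, 4.79 and 3.29 in wild type (each ± 0.73). In CB2-/- cells it fell by 2.83 ± 0.73 with LPS/IFNγ, and the other 2 changes were -1.40 and -1.48 and not called. Its unstimulated level was 22.7, 23.2 and 29.8 in CB2-/- cells, 21.1, 73.3 and 37 in libraries 2186 to 2188 and 96.4, 161 and 107 in 3012 to 3014. Ltc4s, the leukotriene C synthase, was at 21.2, 26.4 and 22.5 in unstimulated wild type and at 0 in all 3 LPS/IFNγ libraries. Fpr2, a receptor for lipoxin and formyl peptides, rose in all 6 comparisons, by 4.59 ± 0.16 with LPS/IFNγ in wild type and 3.92 ± 0.16 in CB2-/- cells.

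Of the 10 tested genes of the list known to respond to cAMP, the second messenger of Ptger2 and Ptger4, more fell than rose in all 6 comparisons. In wild type 3, 1 and 1 rose and 4, 5 and 6 fell with LPS/IFNγ, PolyI:C and CpG (medians -0.89, -1.91 and -2.00). In CB2-/- cells 2, 1 and 1 rose and 4, 2 and 5 fell (medians -0.56, -0.34 and -1.25). Pde4b, a phosphodiesterase, rose in all 6 comparisons (2.30, 2.07 and 1.60 in wild type and 2.04, 0.73 and 1.42 in CB2-/- cells, each ± 0.16). Nr4a1 and Fos, early transcription factors, fell in all 6. Crem rose with LPS/IFNγ (1.83 and 1.15, each ± 0.22) and fell with CpG (-1.92 and -1.43) in both genotypes.

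The pattern over the 9 group means was set beside 8814 other genes by Pearson's r of the log2 means, a description over groups that share the same libraries. Ptgs2 was most like Il6 (0.991), Slamf7 (0.991), Acod1 (0.988) and Ube2z (0.988), and Ptges most like Rap1b (0.989), Rapgef2 (0.986), Eif6 and Rgl1 (both 0.984). Hpgd was most like Itgb5 (0.990), Etl4, Syngr1 and Lman2l (0.987 to 0.988), and Ptgs1 most like Ang (0.991), Tal1 (0.987), Rnase4 (0.982) and Il1rl2 (0.977). Ptger4 was most like Creg1 (0.993), Smpd2 (0.980), Galm (0.978) and Tsc22d3 (0.976). The 4 genes closest to Hpgds were all mitochondrial transcripts, mt-Nd5 (0.980), mt-Nd6 and mt-Nd4 (both 0.978) and mt-Cytb (0.977). Among the members, r was 0.93 between Ptgs2 and Ptges, 0.96 between Ptgs1 and Hpgd, and -0.95 and -0.96 between Hpgd and Ptgs2 or Ptges. For Ptger4 and Alox5ap it was 0.95, and Hpgds and Ptger2 had an r between -0.47 and 0.40 with every other member.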

How the data were processed

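RNA of 27 libraries of primary microglia was sequenced by the authors. The labels' protocols describe both a TruSeq and a low-input SMART-Seq2 preparation without saying which library had which. The tools named, per the submitters' processing notes, are kallisto, DESeq2 and CASAVA 1.8, whose roles are not stated. Their genome build is not given in the sources used here. Normalised counts were deposited by the authors, a signal that is never negative, and a batch-corrected table on a log2 scale, whose batches are not named. Whole reads could not be recovered from the normalised counts, so depth per library in reads is unknown.

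The members and all lists were chosen with earlier results of these data known. Every one of the 10 members is named. Other pathway and marker genes come from lists counted whole, and the named ones are examples. 1 microglial marker of the planned list is not reported here. Of genes with several rows the one with the highest mean was used. log2(value + 1) was fitted with limma 3.58.1 in R 4.3.3 (lmFit, eBayes with trend, 9 group means, two-sided, Benjamini-Hochberg over 14668 genes), after being tested on simulated data. Stimulated wild type was compared with libraries 3012 to 3014, and unstimulated CB2-/- with 2186 to 2188. No genotype difference within a number series could be given for stimulated groups, since each series of stimulated libraries holds 1 genotype. Replicates of a group shared 0 genes with identical values above 0. Gene positions and exon lengths (union of all exons) are from GENCODE M21 (GRCm38), and promoters from RefSeq (GRCm38.p6). Python 3.11.15 was used. Alternatives were other pseudocounts (0.5 and 5), filters (none, 50), scalings, baselines, fits and the batch-corrected table, and leaving out each library. Leaving out the 3 libraries low in astrocyte and fibroblast markers was chosen after seeing the data.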

Additional observations from a re-analysis of the deposited data

Results flagged for a closer look

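The responses of 7 members differed between the genotypes by the interaction term of the limma fit across all genes (CB2-/- response minus wild-type response, log2 ± SE, n = 3 libraries in each of 4 groups). With PolyI:C these were Ptges (-6.34 ± 0.68), Ptgs2 (-5.63 ± 0.71), Hpgd (5.47 ± 0.51), Alox5ap (2.23 ± 0.65), Ptgir (-2.00 ± 0.50) and Ptger4 (1.90 ± 0.23). With LPS/IFNγ they were Ptgs2 (-4.18 ± 0.71) and Ptges (-4.16 ± 0.68). With CpG they were Ptges (-4.11 ± 0.68), Hpgd (1.60 ± 0.51), Tbxas1 (-1.13 ± 0.30) and Ptger4 (0.99 ± 0.23). In 11 of these 12 differences the CB2-/- change was the smaller in size, and the exception was Tbxas1 with CpG. With all 6 unstimulated wild-type libraries as 1 group the calls of Ptgir with PolyI:C (-1.45) and of Hpgd (0.94) and Ptger4 (0.71) with CpG were lost. The genes were chosen with these values known, and genotype and number series cannot be told apart in them.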

How the results depend on the processing

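No paired analysis was possible because the replicate numbers only follow accession order. The tests on reads (edgeR and DESeq2) were not run because whole reads were not recovered. No member's called change reversed its sign under any alternative run. The count of members with a different LPS/IFNγ response, 2 in the report, was 4 after quantile normalisation and 6 with only the compared groups in the fit. It was 8 with library weights, 7 in the batch-corrected table and 6 without the 3 libraries low in astrocyte and fibroblast markers. The CpG count of 4 was 2 with all 6 unstimulated wild-type libraries as baseline. The unstimulated genotype count of 2 was 4 with that baseline, 1 with only the compared groups, 5 with library weights and 7 in the batch-corrected table. The count of 5 between the unstimulated wild-type groups was 2 with only those groups, 3 with a log2 change of at least 1 required as well, and 0 in the batch-corrected table (limma; 3 at an unadjusted p under 0.05). The cause of these shifts was not tested.

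Leaving out 1 library gave 8 to 9 members for LPS/IFNγ, 9 to 10 for PolyI:C and 9 to 9 for CpG in wild type. It gave 7 to 8, 2 to 4 and 7 to 7 in CB2-/- cells. The differences ranged from 2 to 4 for LPS/IFNγ, 6 to 7 for PolyI:C and 2 to 5 for CpG, the unstimulated genotype count from 1 to 5, and the count between the unstimulated wild-type groups from 0 to 5. Where a group had 2 libraries left, the pooled spread of all groups was used. Quantile normalisation moved the median of all genes by -0.11 for LPS/IFNγ and 0.14 for CpG in wild type and by -0.12 for the CpG difference, and upper quartile scaling by -0.11 for LPS/IFNγ in wild type. Of all calls, quantile normalisation gave 678 higher and 787 lower for PolyI:C in CB2-/- cells (750 and 504 in the report's fit), and 813 and 1002 for the LPS/IFNγ difference (584 and 1226).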
